A study of Mus musculus with 10 samples.

Results

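Glycolysis, the fates of its end product pyruvate and the oxygen-sensing response were examined as 1 set of 35 genes in mouse macrophages. The set was a chosen list of gene symbols, made up of 25 genes of glucose uptake, glycolysis, lactate and pyruvate handling and 10 genes of hypoxia-inducible factor (HIF), its regulators and its targets outside glycolysis. All 35 were found among the 29700 rows of the gene count table that were not circular RNAs, and all 35 passed the filter on low counts. Peritoneal macrophages, the phagocytes of the abdominal cavity, had been drawn out with thioglycollate, a sterile irritant, from C57BL/6 mice of 8 weeks, and RNA sequencing was done on 5 control and 5 ox-LDL libraries described as biological replicates. By the labels the control cells were left untreated, whereas the ox-LDL cells were primed with lipopolysaccharide (LPS, a bacterial cell wall component) at 100 ng/ml and then kept for 16 hours with oxidized low-density lipoprotein (ox-LDL, the modified cholesterol carrier that macrophages take up in arterial lesions) at 100 µg/ml. The study's own text is less clear on whether the control cells were also primed with LPS. Each difference given here is therefore that of LPS with ox-LDL if the labels hold and of ox-LDL on primed cells if not, and in the former case the effects of the agents cannot be told apart. By the labels, no deletion, transgene or hypoxic exposure was part of either group.

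Glycolysis splits glucose into pyruvate, with glucose transporters, hexokinases and phosphofructokinases at its controlled entry steps and a shared chain of enzymes from aldolase to pyruvate kinase below them. Pyruvate is either oxidized in mitochondria or reduced to lactate and exported. HIF is a dimer whose alpha subunits, Hif1a and Epas1, are marked for destruction by prolyl hydroxylases when oxygen is plentiful, and it switches on glycolytic genes and genes of vessel growth, mitophagy and collagen processing, while in macrophages Hif1a transcript is also known to be raised by LPS.

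Libraries held 20094647 to 20687289 estimated counts in controls and 19257131 to 20358017 in ox-LDL libraries. Levels of 1 gene between libraries are given on the counts-per-million scale (CPM), normalized by the trimmed mean of M-values (TMM), and levels of different genes are compared only per transcript length, as the deposited values (FPKM) or as ratios of counts per kilobase within a library. The summed level of 8 macrophage markers ranged from 19649 to 46797 CPM in controls and from 12474 to 47888 CPM in ox-LDL libraries, most of it Lyz2 (group means 27763 and 17431 CPM), and 2 of the 8 were higher, the surface markers Adgre1 (4.21-fold) and Cd14 (4.71-fold). The sum of 7 mesothelial and stromal markers ranged from 14.5 to 46.9 CPM and from 87.1 to 148 CPM, with 3 of the 7 higher (Col1a1, Col1a2 and Dcn) and, among the mesothelial markers, Msln and Upk3b below 1 CPM in both group means and Wt1 at 1.26 and 2.09 CPM. The 8 measured neutrophil markers summed to 5.90 to 14.5 CPM in controls and 11.5 to 153 CPM in ox-LDL libraries. S100a8 was the 1 marker that passed the filter and was higher (6.79-fold, edgeR adjusted p = 0.0031), with 152 CPM in ox-LDL 2. The others measured, S100a9 and Cxcr2 among them, were below 1 CPM in both group means. The lists for B cells, T cells, dendritic cells, eosinophils and mast cells, and red cells each summed to at most 8.12 CPM in any library. Among them Siglecf fell (group means 4.31 and 0.443 CPM) and Clec9a rose (0.322 and 1.68 CPM). The part of such other cells in the results was not tested, and in bulk RNA fewer cells of a type and less RNA per cell cannot be told apart. Ox-LDL replicate 5 stood apart, being the highest of its group in 26 of the 35 genes and the lowest in 3, and ox-LDL replicate 2 was the lowest in 19. In the latter library short genes were high relative to long ones (Spearman correlation of deviation with gene length -0.65, across genes), as also in controls 1 and 4 (-0.57 and -0.46), while ox-LDL replicate 5 was at 0.06 and the other libraries at 0.31 to 0.51.

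At an adjusted p below 0.01, 11 of the 35 genes rose in ox-LDL libraries (31.4%), 3 fell (8.57%) and 21 did not pass. Among all 12654 genes tested, 9.40% rose and 5.35% fell, 14.7% in either direction. The 35 genes were chosen with earlier results of these data known, so their shares only describe the list. The genes that rose were Slc2a1, Slc2a6, Hk2, Hk3, Pfkp, Pfkfb3, Slc16a1, Slc16a3, Hif1a, P4ha1 and Kdm3a, and those that fell were Aldoc, Ldhb and Epas1. The median log2 fold change of the 35 was 1.15, against 0.10 over all genes tested, and 28 of the 35 had a positive value. All 5 ox-LDL libraries lay above all 5 controls for 17 of the 35 genes (48.6%, against 11.6% of all genes tested) and below them for 4 (11.4%, against 9.11%). The median of the 35 was 0.78 without ox-LDL replicate 5, where 9 genes rose and 3 fell (1046 and 609 of all genes). Without control replicate 4, 3 genes rose and 3 fell (826 and 436 of all genes). Without ox-LDL replicate 2, 17 rose and 4 fell (1755 and 1502 of all genes). Of the 14 calls, 5 were kept whichever library was left out (Slc2a6, Hk2, Slc16a1, Aldoc and Epas1) and 9 were lost when some library was left out, as given at each gene. None of the 14 changed sign when a library was left out. A limma fit on log2(FPKM + 1) called 4 higher (Slc2a6, Hk2, Slc16a1 and Hif1a) and the same 3 lower. Scaling moved the median of all genes, from 0.10 with TMM to -0.09 with library size alone and -0.14 on the FPKM scale, and the share of higher among all calls from 63.7% (1189 higher and 677 lower) to 54.7% (704 and 583) and 42.5% (555 and 750). Relative to that median, the median of the 35 genes was higher by 1.06, 1.03 and 0.99 in the 3 fits.

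**Figure D1:**
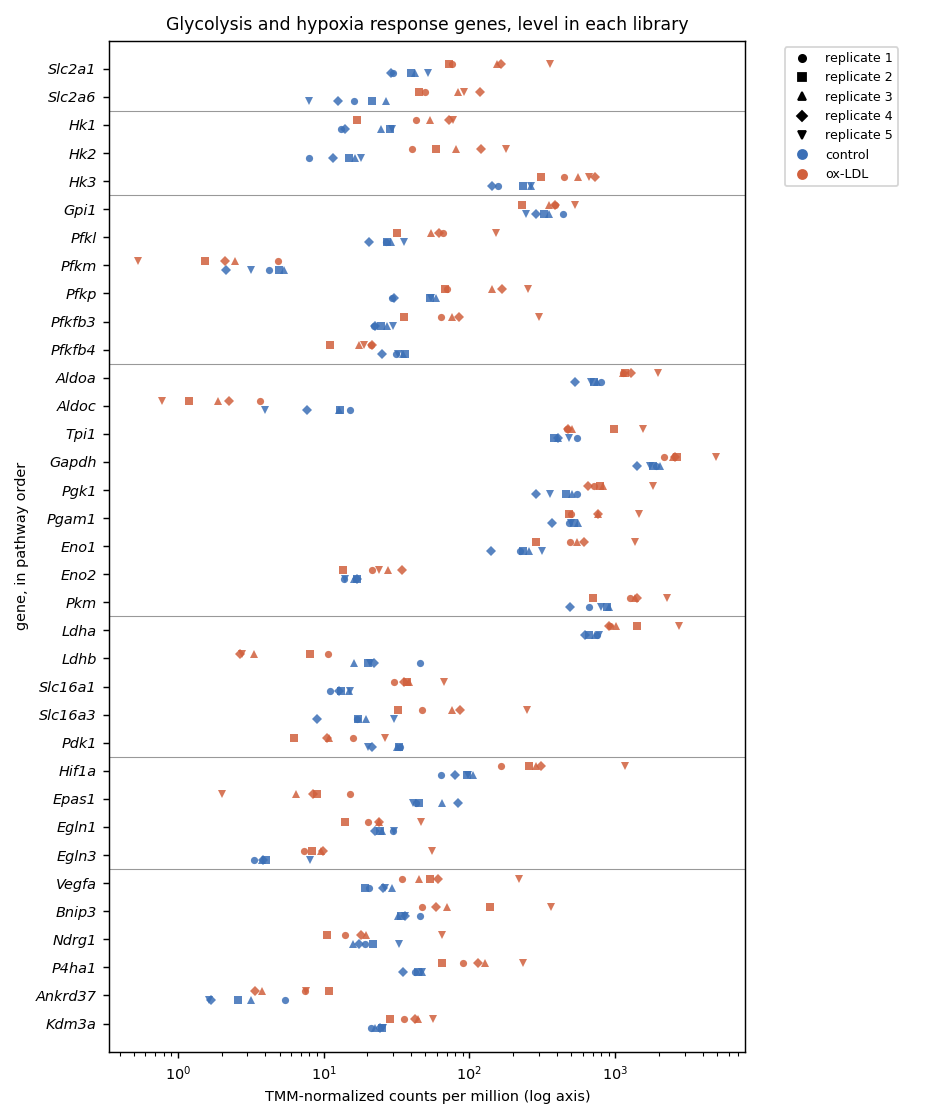
Level of each of the 35 genes in each library, in CPM (TMM-normalized counts-per-million) on a log axis, with controls in blue, ox-LDL libraries in orange and the marker shape giving the replicate. Hk2, Slc16a1 and Slc2a6 show ox-LDL points wholly to the right of the controls, Aldoc, Ldhb and Epas1 wholly to the left, and replicate 5 (downward triangles) is the rightmost ox-LDL point in 26 genes.

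**Figure D2:**
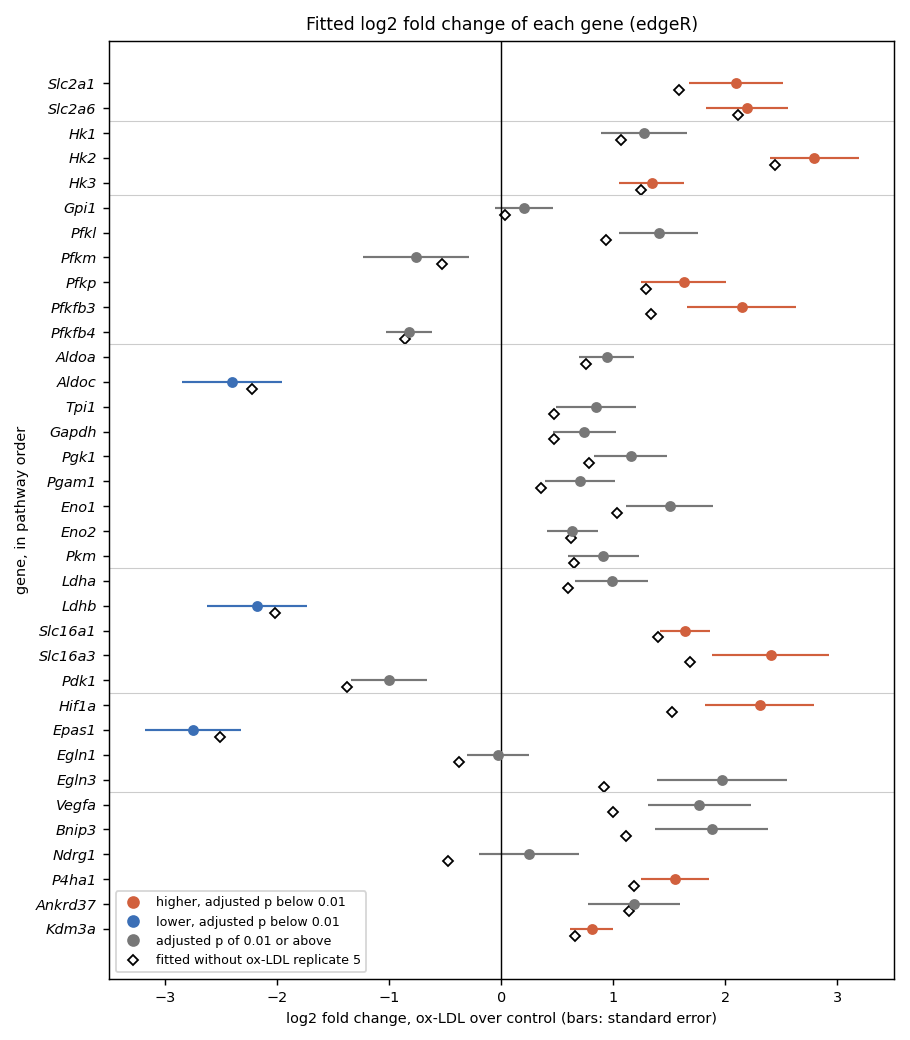
Fitted log2 fold change of each gene, ox-LDL over control, with bars of 1 standard error (5 libraries a group) and open diamonds for the fit without ox-LDL replicate 5. The 11 genes in orange and 3 in blue had an adjusted p below 0.01, and without replicate 5 Hif1a moved from 2.30 to 1.52 and Pfkfb3 from 2.15 to 1.34.

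The HIF dimer binds a short core sequence, ACGTG or GCGTG, which was counted on both strands in the 250 bases before each annotated start of a gene in RefSeq (GRCm38.p6), overlapping matches being merged and a gene being counted when any of its windows held the core. Of the 33 genes with such a window (not Epas1 and Ndrg1), 30 held the core (90.9%), against 41.5% of all 27025 genes with a window. It was present in 11 of 11 genes that rose, 2 of 2 that fell and 17 of 20 that did not pass. At least 3 sites were found in 8 of the 33 and in 5.37% of all genes. Of those 8, Slc2a6, Pfkp, Slc16a1 and P4ha1 rose, while Pgam1, Ldha, Bnip3 and Ankrd37 did not pass. The set was in part chosen as HIF targets, and the background of all genes was not matched to it for expression or base content. A match is a description of letters and not evidence of binding. Shown 5′ to 3′ on the gene's own strand, with the core in capitals, are 4 risen genes with at least 3 sites, Hif1a itself and the fallen Ldhb, all picked after their values were seen. Each matched mm9, the build of the study, at exactly 1 place: Slc2a6 at chr2:26883519-26883768 (minus strand), Pfkp at chr13:6648018-6648267 (minus), Slc16a1 at chr3:104442337-104442586 (plus), P4ha1 at chr10:58785794-58786043 (plus), Hif1a at chr12:75008604-75008853 (plus) and Ldhb at chr6:142456478-142456727 (minus). The Hif1a window lies inside the span given for that gene in the mm9 annotation, chr12:75002362-75048517, whose first base is further upstream.
Slc2a6: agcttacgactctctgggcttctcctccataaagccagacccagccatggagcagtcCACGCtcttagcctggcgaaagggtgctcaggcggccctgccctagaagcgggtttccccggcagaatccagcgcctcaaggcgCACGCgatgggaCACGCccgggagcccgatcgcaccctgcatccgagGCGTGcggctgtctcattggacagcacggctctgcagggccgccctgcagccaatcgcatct
Pfkp: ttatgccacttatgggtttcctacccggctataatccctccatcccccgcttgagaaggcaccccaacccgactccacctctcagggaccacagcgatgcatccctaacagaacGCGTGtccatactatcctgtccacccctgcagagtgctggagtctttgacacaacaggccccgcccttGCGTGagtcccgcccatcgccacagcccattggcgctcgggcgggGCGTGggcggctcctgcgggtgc
Slc16a1: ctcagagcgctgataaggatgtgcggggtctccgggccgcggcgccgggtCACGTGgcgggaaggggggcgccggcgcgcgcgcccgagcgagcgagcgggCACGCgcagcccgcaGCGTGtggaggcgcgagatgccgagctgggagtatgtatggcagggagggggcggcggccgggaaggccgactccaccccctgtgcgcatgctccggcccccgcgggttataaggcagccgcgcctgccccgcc
P4ha1: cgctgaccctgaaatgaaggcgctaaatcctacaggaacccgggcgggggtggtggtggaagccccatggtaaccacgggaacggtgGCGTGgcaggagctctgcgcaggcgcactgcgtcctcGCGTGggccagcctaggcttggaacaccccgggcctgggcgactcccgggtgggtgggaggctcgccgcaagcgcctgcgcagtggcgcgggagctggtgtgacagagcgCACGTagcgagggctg
Hif1a: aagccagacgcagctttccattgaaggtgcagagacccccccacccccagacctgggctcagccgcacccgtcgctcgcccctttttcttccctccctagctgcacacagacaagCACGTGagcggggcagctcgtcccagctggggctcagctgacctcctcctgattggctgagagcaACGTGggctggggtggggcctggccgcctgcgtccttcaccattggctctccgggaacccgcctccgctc
Ldhb: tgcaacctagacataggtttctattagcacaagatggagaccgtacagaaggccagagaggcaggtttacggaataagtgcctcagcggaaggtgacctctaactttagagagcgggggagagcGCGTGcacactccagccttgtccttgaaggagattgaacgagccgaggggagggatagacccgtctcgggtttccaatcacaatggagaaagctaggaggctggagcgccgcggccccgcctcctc
The Slc16a1 and Hif1a windows each hold 1 palindromic CACGTG, which is also the letters of the E-box.

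Both listed genes of the glucose transporter family rose. Slc2a1 (mm9 chr4:118781316-118809935), the widely expressed carrier for basal glucose uptake, was at 29.7, 39.8, 42.5, 29.1 and 51.9 CPM in controls 1 to 5 and at 75.8, 72.2, 155, 165 and 357 CPM in ox-LDL libraries 1 to 5. Every ox-LDL library lay above every control, and the mean rose 4.28-fold (log2 fold change 2.096, SE 0.42, edgeR adjusted p = 0.003196). Without control replicate 1, 2 or 4 its adjusted p by edgeR was 0.01004 to 0.0118, just past the threshold, with log2 fold changes of 2.00 to 2.10. Slc2a6 (mm9 chr2:26876883-26883518), a transporter of lysosomal membranes in macrophages whose cargo is less settled, was at 16.2, 21.6, 26.8, 12.5 and 7.897 CPM in controls 1 to 5 and at 49.4, 45.3, 83.5, 119 and 92.3 CPM in ox-LDL libraries 1 to 5. The groups did not overlap, and the mean rose 4.58-fold (log2 fold change 2.19, SE 0.36, edgeR adjusted p = 0.00103). Per transcript length Slc2a1 stayed the higher of the pair, at 17.4 ± 5.81 FPKM in controls and 64.3 ± 40.3 FPKM in ox-LDL libraries, with Slc2a6 at 9.13 ± 4.61 FPKM in controls and 37.9 ± 19.1 FPKM in ox-LDL libraries.

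Of the 3 hexokinases, which trap glucose in the cell by phosphorylating it, Hk2 and Hk3 rose and Hk1 did not pass. Hk2 (mm9 chr6:82675019-82724448), the inducible form that docks on mitochondria, was at 7.902, 14.96, 16.4, 11.5 and 18.2 CPM in controls 1 to 5 and at 40.7, 58.8, 81.5, 121 and 177 CPM in ox-LDL libraries 1 to 5. It had the largest positive log2 fold change of the 35 genes, a 6.93-fold rise (log2 fold change 2.79, SE 0.396, edgeR adjusted p = 3.86e-04), and kept its call under all 25 alternatives. Hk3 (mm9 chr13:55107346-55122746), the form typical of myeloid cells, was at 158, 234, 263, 143 and 265 CPM in controls 1 to 5 and at 445, 308, 552, 728 and 657 CPM in ox-LDL libraries 1 to 5. Its groups did not overlap either (log2 fold change 1.34, SE 0.29, edgeR adjusted p = 0.00501), but the adjusted p by edgeR was 0.0102 to 0.0178 without control 1, 2, 3 or 4 or without ox-LDL 3, 4 or 5, at log2 fold changes of 1.21 to 1.42. Hk1, the housekeeping form, went from 21.97 ± 7.94 to 52.99 ± 24.5 CPM (log2 fold change 1.27, edgeR adjusted p = 0.0289), with ox-LDL replicate 2 at 16.9 CPM among the controls. Its adjusted p by edgeR was 0.00147 without that library, at a log2 fold change of 1.46. Per length Hk3 was by far the highest hexokinase in both groups, at 75.99 ± 27.5 FPKM in controls and 173 ± 73.4 FPKM in ox-LDL libraries. Hk1 followed in controls, at 6.48 ± 2.83 FPKM in controls and 14.1 ± 7.08 FPKM in ox-LDL libraries, and Hk2, at 2.84 ± 1.07 FPKM in controls and 17.2 ± 9.53 FPKM in ox-LDL libraries, was the lowest in controls and passed Hk1 in the mean of the ox-LDL libraries.

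Among 6 genes of the hexose phosphate steps, Pfkp and Pfkfb3 rose. Pfkp (mm9 chr13:6579014-6648023), the platelet-type phosphofructokinase of the committed step, was at 29.3, 53.9, 59.2, 30.2 and 54.2 CPM in controls 1 to 5 and at 70.8, 67.8, 143, 167 and 252.1 CPM in ox-LDL libraries 1 to 5. It rose 3.09-fold with no overlap (log2 fold change 1.63, SE 0.38, edgeR adjusted p = 0.00798), and its call was lost without any 1 of the 5 controls or without ox-LDL 3, 4 or 5, at an edgeR adjusted p of 0.0136 to 0.0254 and log2 fold changes of 1.29 to 1.73. Pfkfb3 (mm9 chr2:11393057-11423728), which makes the sugar bisphosphate that stimulates phosphofructokinase, was at 22.3, 24.8, 27.3, 22.6 and 29.8 CPM in controls 1 to 5 and at 63.4, 35.7, 75.9, 84.6 and 302 CPM in ox-LDL libraries 1 to 5. Replicate 5 exceeded the next ox-LDL library by more than 3 times, and all 5 lay above the controls (log2 fold change 2.15, SE 0.49, edgeR adjusted p = 0.006703). Without any 1 of the controls or without ox-LDL 4 its adjusted p by edgeR was 0.0108 to 0.0209, at log2 fold changes of 2.10 to 2.24, while without ox-LDL 5 the log2 fold change was 1.34.

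Pfkfb4, the isoform of the same bifunctional enzyme better known from testis, had a negative value and lay just outside the threshold, as Kdm3a (edgeR adjusted p = 0.00821) and Pfkp (0.00798) lay just inside. It was at 31.2, 36.5, 35.2, 25 and 32.5 CPM in controls 1 to 5 and at 21.2, 11.1, 17.5, 21.5 and 18.97 CPM in ox-LDL libraries 1 to 5. All ox-LDL libraries lay below all controls (log2 fold change -0.83, SE 0.202, edgeR adjusted p = 0.0101), and without ox-LDL 2 its adjusted p by edgeR was 0.00243, at a log2 fold change of -0.73. The liver-type Pfkl went from 27.8 ± 5.35 to 73.6 ± 46.03 CPM (log2 fold change 1.404, edgeR adjusted p = 0.0117), with ox-LDL 2 within the range of the controls and an adjusted p by edgeR of 0.00147 without it, at a log2 fold change of 1.56. The muscle-type Pfkm went from 3.97 ± 1.31 to 2.31 ± 1.62 CPM (log2 fold change -0.76, edgeR adjusted p = 0.258). Gpi1, the isomerase between hexokinase and phosphofructokinase, went from 329 ± 74.4 to 378 ± 108 CPM (log2 fold change 0.201, edgeR adjusted p = 0.609), and its value was -0.02 in the limma fits on FPKM.

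From aldolase to pyruvate kinase, 0 of the 9 genes rose at the threshold by edgeR and 1 fell (0% and 11.1%, against 9.40% and 5.35% of all genes tested). With only 9 genes, these counts cannot be told from the shares of all genes. The other 8 had positive values, and 3 of them were higher at an adjusted edgeR p below 0.05, as were 2045 of all 12654 genes. DESeq2 called 3 of the 8 higher, and 1765 of all 12654 genes. The median log2 fold change of the 9 was 0.85. Gapdh, which oxidizes triose phosphate and is often taken as a reference gene, was at 1893, 1814, 2020.1, 1419.8 and 1721 CPM in controls 1 to 5 and at 2157, 2658, 2482, 2567 and 4949 CPM in ox-LDL libraries 1 to 5. Its ox-LDL libraries all lay above its controls (log2 fold change 0.74, SE 0.28, edgeR adjusted p = 0.0714), with replicate 5 well above the rest of that group. Aldoa, the main aldolase, went from 697 ± 101 to 1337 ± 359.7 CPM (log2 fold change 0.94, edgeR adjusted p = 0.0137), again with no overlap, and Pgk1, which makes the first ATP of the pathway, from 432 ± 109 to 961 ± 487 CPM (log2 fold change 1.15, edgeR adjusted p = 0.0226). Eno1, the common enolase, had the largest fold change of the rest of the chain, from 234 ± 62.5 to 661 ± 417 CPM (log2 fold change 1.502, edgeR adjusted p = 0.01405). Tpi1, Pgam1 and Pkm (triose phosphate isomerase, phosphoglycerate mutase and the pyruvate kinase of most tissues) had log2 fold changes of 0.85, 0.70 and 0.91, with edgeR adjusted p = 0.1004, 0.1196 and 0.0528. Eno2, the enolase of neurons, was at 0.63 (edgeR adjusted p = 0.0564). Without ox-LDL 2, Aldoa, Eno1, Eno2 and Pkm passed, at edgeR adjusted p of 0.00457, 0.00191, 0.00416 and 0.00518 and log2 fold changes of 0.95, 1.66, 0.74 and 1.04. Near-identical copies (at least 90% identity over 50% of the transcript) elsewhere in mm9 numbered 115 for Gapdh, 8 for Ldha, 5 for Eno1, 3 each for Aldoa, Pgam1 and Bnip3, 2 each for Tpi1, Pgk1 and Pkm and 1 for Ldhb, so the assignment of reads to these genes is uncertain, while none of the 11 risen genes had such a copy. Exons of 10 of the 35 genes, among them the risen Slc2a1, Hk3, Pfkp, Slc16a3 and Hif1a, overlap those of a gene on the opposite strand in mm9, and whether strand was used in counting is not given in the sources used here.

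Aldoc (mm9 chr11:78136470-78141283), the brain-type aldolase, fell. It was at 15.3, 13, 12.7, 7.67 and 3.99 CPM in controls 1 to 5 and at 3.65, 1.198, 1.899, 2.24 and 0.776 CPM in ox-LDL libraries 1 to 5. The highest ox-LDL library lay just below the lowest control, and the mean was 5.29-fold lower (log2 fold change -2.403, SE 0.45, edgeR adjusted p = 0.00211). Its level was low beside that of Aldoa, at 4.39 ± 1.89 FPKM in controls and 0.802 ± 0.598 FPKM in ox-LDL libraries against 546 ± 101 FPKM in controls and 916 ± 261 FPKM in ox-LDL libraries.

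The lactate and pyruvate genes split. Slc16a1 and Slc16a3, monocarboxylate transporters that carry lactate across the plasma membrane, rose. Slc16a1 (mm9 chr3:104442591-104462385) was at 11.2, 13.3, 14.9, 12.8 and 15.3 CPM in controls 1 to 5 and at 30.6, 37.5, 38.9, 35.8 and 67.5 CPM in ox-LDL libraries 1 to 5. The lowest ox-LDL value was about 2 times the highest control, the smallest adjusted p of the set went with it (log2 fold change 1.64, SE 0.22, edgeR adjusted p = 3.08e-04), and no left-out library ended the call. Slc16a3 (mm9 chr11:120809794-120822182), the lactate exporter of glycolytic cells, was at 16.9, 17.1, 19.5, 8.95 and 30.3 CPM in controls 1 to 5 and at 47.4, 32.3, 76.02, 86.3 and 249 CPM in ox-LDL libraries 1 to 5. It rose 5.29-fold (log2 fold change 2.403, SE 0.52, edgeR adjusted p = 0.00529), with an edgeR adjusted p of 0.0102 to 0.0172 without control 1, 2, 3 or 4 or ox-LDL 4, at log2 fold changes of 2.22 to 2.45. Without ox-LDL 5 the call was kept and the log2 fold change was 1.69.

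Ldhb (mm9 chr6:142438769-142456477), the lactate dehydrogenase subunit of oxidative tissues, fell 4.54-fold (log2 fold change -2.18, SE 0.45, edgeR adjusted p = 0.00376). It was at 45.8, 20.1, 16.3, 22.02 and 20.9 CPM in controls 1 to 5 and at 10.7, 8.04, 3.36, 2.67 and 2.74 CPM in ox-LDL libraries 1 to 5. The groups did not overlap, and control replicate 1 was the highest of its group by a wide margin. Without ox-LDL 3 or 5 the adjusted p by edgeR was 0.0117, at log2 fold changes of -2.05 and -2.02. Ldha, the subunit of glycolytic tissues, went from 706 ± 65.5 to 1395 ± 776 CPM (log2 fold change 0.98, edgeR adjusted p = 0.0441), again without overlap. Pdk1, the kinase that blocks entry of pyruvate into the mitochondrial cycle and a known HIF target, was at 33.5, 32.96, 31.9, 21.6 and 20.3 CPM in controls 1 to 5 and at 15.9, 6.25, 10.9, 10.6 and 26.3 CPM in ox-LDL libraries 1 to 5. Ox-LDL 5 lay within the controls and the other 4 below them (log2 fold change -1.001, SE 0.34, edgeR adjusted p = 0.0457), and without ox-LDL 5 its adjusted p by edgeR was 0.00433, at a log2 fold change of -1.38.

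The HIF alpha subunits went in opposite directions. Hif1a (mm9 chr12:75002362-75048517) was at 63.7, 96.01, 105, 79.1 and 98.6 CPM in controls 1 to 5 and at 164, 258, 288, 309 and 1167 CPM in ox-LDL libraries 1 to 5. It rose 4.94-fold with no overlap (log2 fold change 2.304, SE 0.49, edgeR adjusted p = 0.00448), replicate 5 being nearly 4 times the next highest library. Without any 1 of the controls its adjusted p by edgeR was 0.0110 to 0.0157, at log2 fold changes of 2.20 to 2.37, and without ox-LDL 5 the call was kept at 1.52. Epas1 (mm9 chr17:87153247-87232750), the other alpha subunit, was at 43.05, 45.4, 64.99, 83.5 and 41.1 CPM in controls 1 to 5 and at 15.1, 8.98, 6.53, 8.49 and 2.03 CPM in ox-LDL libraries 1 to 5. The mean fell 6.73-fold (log2 fold change -2.75, SE 0.43, edgeR adjusted p = 7.00e-04), the lowest library was ox-LDL replicate 5, and the call was kept under all 25 alternatives. Per length, Epas1 was at 11.4 ± 3.59 FPKM in controls and 1.6 ± 1.19 FPKM in ox-LDL libraries and Hif1a at 22.7 ± 6.46 FPKM in controls and 92.2 ± 77.7 FPKM in ox-LDL libraries.

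Neither Egln1 nor Egln3 passed. Egln1, the main oxygen sensor, had group means that went from 26.5 ± 3.44 to 25.8 ± 12.4 CPM (log2 fold change -0.03, edgeR adjusted p = 0.948). Egln3, a hydroxylase that HIF itself induces, was at 3.32, 4.06, 3.803, 3.86 and 8.07 CPM in controls 1 to 5 and at 7.38, 8.298, 9.54, 9.97 and 55.7 CPM in ox-LDL libraries 1 to 5. Ox-LDL replicate 5 was more than 5 times the next library, and control replicate 5 lay above ox-LDL 1 (log2 fold change 1.97, SE 0.58, edgeR adjusted p = 0.0258). The log2 fold change of Egln3 was 0.92 without ox-LDL 5.

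All 6 HIF targets outside glycolysis had positive log2 fold changes (median 1.37), and P4ha1 and Kdm3a passed. P4ha1 (mm9 chr10:58786044-58836052), the catalytic subunit of the collagen prolyl hydroxylase, was at 42.7, 44.1, 47.2, 34.8 and 47.3 CPM in controls 1 to 5 and at 90.3, 64.7, 127, 115 and 234 CPM in ox-LDL libraries 1 to 5. It rose 2.92-fold without overlap (log2 fold change 1.55, SE 0.304, edgeR adjusted p = 0.00293), with an edgeR adjusted p of 0.0113 without control 4, at a log2 fold change of 1.47. Kdm3a (mm9 chr6:71538968-71582899), a histone demethylase, was at 21.1, 25.1, 22.4, 24.5 and 25.4 CPM in controls 1 to 5 and at 35.7, 28.4, 44.5, 42.1 and 56.5 CPM in ox-LDL libraries 1 to 5. The rise was small (log2 fold change 0.81, SE 0.19, edgeR adjusted p = 0.00821), and it was lost without any 1 of the controls or without ox-LDL 3, 4 or 5, at an edgeR adjusted p of 0.0108 to 0.0261 and log2 fold changes of 0.66 to 0.83.

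Vegfa, the endothelial growth factor, and Bnip3, a mitophagy receptor, did not overlap between groups but varied widely. Vegfa was at 20.7, 19.4, 29.6, 25.7 and 26.6 CPM in controls 1 to 5 and at 34.6, 53.98, 45.1, 61.04 and 220.0 CPM in ox-LDL libraries 1 to 5 (log2 fold change 1.77, SE 0.46, edgeR adjusted p = 0.0142). Its adjusted p by edgeR was 0.00720 without ox-LDL 1, at a log2 fold change of 1.96, and 0.00642 without ox-LDL 5, at 0.99. Bnip3 went from 36.9 ± 5.34 to 136 ± 132 CPM (log2 fold change 1.88, edgeR adjusted p = 0.0167), and had an edgeR adjusted p of 0.00739 at a log2 fold change of 2.10 without ox-LDL 1 and of 0.0267 at 1.11 without ox-LDL 5. Ankrd37, an ankyrin repeat protein, went from 2.92 ± 1.56 to 6.64 ± 3.12 CPM (log2 fold change 1.18, edgeR adjusted p = 0.0519). Ndrg1, a stress-responsive gene, went from 21.4 ± 6.72 to 25.4 ± 22.2 CPM (log2 fold change 0.25, edgeR adjusted p = 0.727), and its sign turned to -0.47 without ox-LDL 5, the 1 ox-LDL library above all controls.

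Isoenzymes and paired regulators were compared as 11 log2 ratios of counts per kilobase within each library, which need no scaling between libraries. In 6 of the 11 the groups did not overlap, each at the smallest p that a 2-sided exact permutation test of 5 against 5 allows, and p-values were adjusted over the 11 ratios. For Pfkfb3 over Pfkfb4, Epas1 over Hif1a, Ldhb over Ldha and Aldoc over Aldoa, each gene had already separated the groups, in opposite directions. Those ratios had to separate as well, so their p adds nothing to the values of the genes and is not printed with them. Their forced p-values still entered the adjustment over the 11 ratios. This lowered the adjusted p of other ratios, among them Hk2 over Hk1 and Egln3 over Egln1. The pairs were chosen with earlier results of these data known. Hk2 over Hk1 was -1.24, -1.45, -1.09, -0.78 and -1.21 in controls 1 to 5 and -0.601, 1.29, 0.09, 0.22 and 0.68 in ox-LDL libraries 1 to 5, so that Hk2 was the lower of the pair in every control and the higher in 4 of 5 ox-LDL libraries (difference 1.49, exact permutation p = 0.00794, adjusted p = 0.0146). Pfkfb3 over Pfkfb4 was -0.85, -0.92, -0.74, -0.51 and -0.49 in controls 1 to 5 and 1.21, 1.31, 1.75, 1.604 and 3.62 in ox-LDL libraries 1 to 5. The sign was thus opposite in the groups, with more Pfkfb4 in all controls and more Pfkfb3 in all ox-LDL libraries (difference 2.604). Egln3 over Egln1 was -2.36 ± 0.45 in controls and -0.69 ± 0.703 in ox-LDL libraries (difference 1.67, exact permutation p = 0.00794, adjusted p = 0.0146).

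The other 3 such ratios fell. Epas1 over Hif1a was -0.85, -1.37, -0.98, -0.21 and -1.55 in controls 1 to 5 and -3.73, -5.14, -5.75, -5.47 and -9.46 in ox-LDL libraries 1 to 5. This was the largest shift of the 11, from about 1 Epas1 to 2 Hif1a in the controls (mean ratio 0.502) to a mean ratio of 0.0166 in ox-LDL libraries (difference -4.92). Ox-LDL 5 was the lowest, and without it the difference was -4.03. Ldhb over Ldha was -4.56 ± 0.55 in controls and -7.74 ± 1.304 in ox-LDL libraries (difference -3.18). Aldoc over Aldoa was -7.07 ± 0.71 in controls and -10.47 ± 1.13 in ox-LDL libraries (difference -3.39). In the aldolase and lactate dehydrogenase pairs the less abundant form fell, while the abundant one had a positive log2 fold change that did not pass.

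The remaining 5 ratios overlapped. Eno2 over Eno1 was -4.42 ± 0.51 in controls and -5.197 ± 0.68 in ox-LDL libraries (difference -0.78, exact permutation p = 0.0397, adjusted p = 0.0624, past the 0.05 level before adjustment only). Slc2a6 over Slc2a1 was -1.01 ± 0.83 in controls and -0.66 ± 0.59 in ox-LDL libraries (difference 0.35, exact permutation p = 0.5, adjusted p = 0.55). Hk3 over Hk1, Pfkp over Pfkl and Slc16a3 over Slc16a1 differed by 0.15, 0.28 and 0.54, with exact permutation p = 0.643, 0.357 and 0.230 (adjusted p = 0.643, 0.437 and 0.316). A p that misses the level does not show that these pairs kept their ratio.

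**Figure D3:**
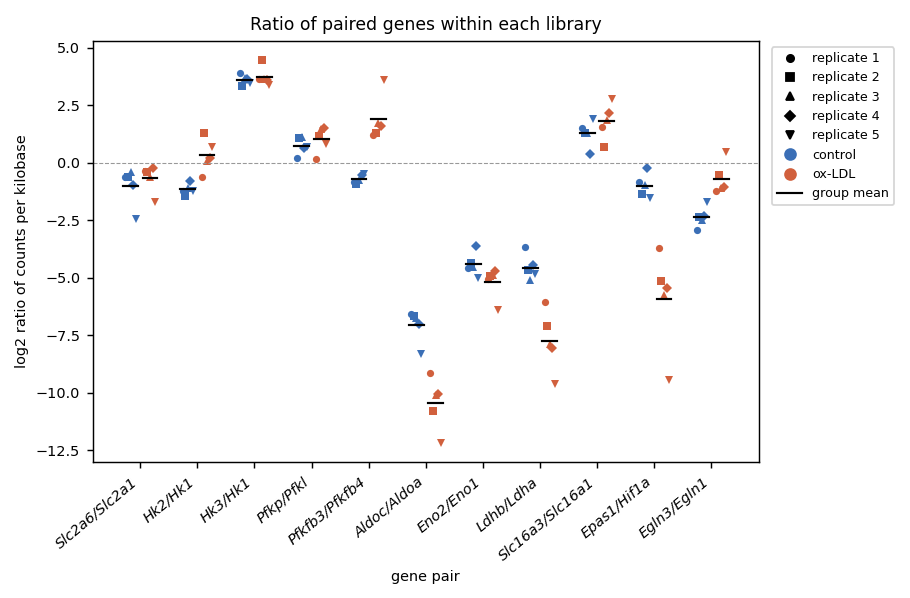
Log2 ratio of counts per kilobase for 11 gene pairs within each library, controls in blue, ox-LDL libraries in orange, marker shape for the replicate and black bars for group means. Epas1/Hif1a has the widest gap, from a mean of -0.99 to -5.91, and Pfkfb3/Pfkfb4 crosses the dashed line of equal level.

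Set side by side by role, the groups moved unequally in the same libraries. The median log2 fold change was 2.15 for the 2 genes of the glucose transporter family, of which Slc2a6 has a less settled cargo. It was 1.34 for the 3 hexokinases, 0.80 for the 6 genes of the hexose phosphate steps and 0.85 for the 9 from aldolase to pyruvate kinase. For the 5 of lactate and pyruvate it was 0.98, for the 4 of HIF and the hydroxylases 0.97 and for the 6 other HIF targets 1.37. These medians were not tested against each other. The 4 of HIF and the hydroxylases had 2 positive and 2 negative values, from -2.75 (Epas1) to 2.30 (Hif1a), so their median stands for no gene of the group. As the median deviation from the control mean, Slc2a1 and Slc2a6 together were at 1.33, 1.24, 2.23, 2.53 and 2.90 in ox-LDL libraries 1 to 5. The chain from aldolase to pyruvate kinase was at 0.48, 0.33, 0.72, 0.68 and 1.59, and the other HIF targets at 0.56, 0.88, 0.91, 0.76 and 2.05. Over all 35 genes the 5 values were 0.71, 0.58, 0.90, 0.90 and 1.82, against -0.31 to 0.18 in controls, so that every ox-LDL library lay above every control and replicate 5 lay apart from the other 4.

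**Figure D4:**
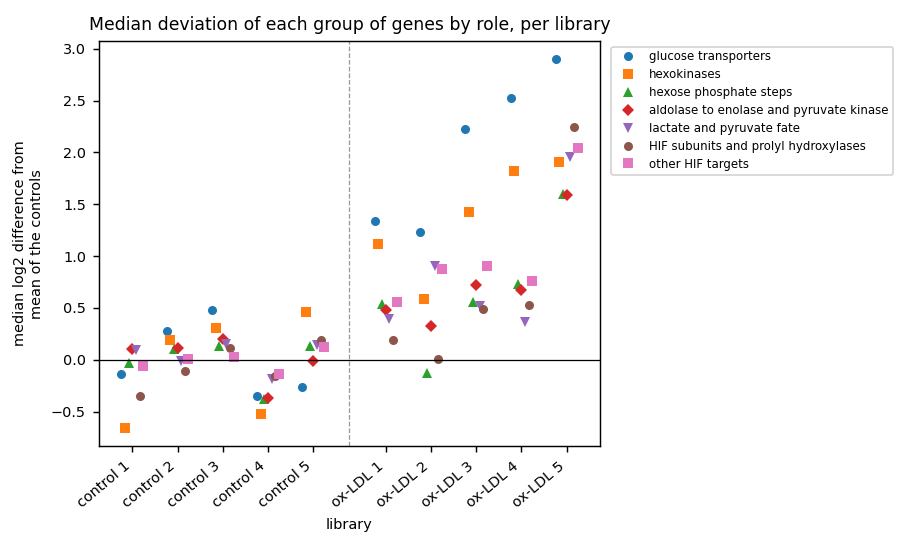
Median log2 difference from the mean of the controls for each of the 7 groups of genes by role, per library (symbols and colours give the group). The medians of all 7 groups are highest in ox-LDL replicate 5, though Epas1 itself was lowest there. The 2 genes of the glucose transporter family are the highest group in each of the 5 ox-LDL libraries.

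Outside the set, 68 further genes of glycolysis and HIF were listed, of which 54 were tested. Of these, 9 rose (16.7%, against 9.40% of all genes tested) and 4 fell (7.41%, against 5.35%). Both lists were written with earlier results of these data known, so their shares describe the lists and are no independent comparison. Their median log2 fold change was 0.29, against 0.10 over all genes. Of 27 further glycolysis genes 0 rose and 1 fell by edgeR (0% and 3.7%, against 9.40% and 5.35% of all genes tested). DESeq2 called 1 higher and 3 lower (1765 and 1244 of all 12654 genes). At an adjusted edgeR p below 0.05, 1 was higher and 3 lower (2045 and 1320 of all 12654 genes). The gene that fell by edgeR was Slc16a7, a pyruvate and lactate carrier, which went from 32.7 ± 1.43 to 15.2 ± 4.83 CPM (log2 fold change -1.101, SE 0.23, edgeR adjusted p = 0.00456). Of 27 further HIF genes 9 rose (33.3%) and 3 fell (11.1%). Among those that rose were Lox, a collagen cross-linking enzyme (2.56 ± 1.67 to 28.1 ± 25.6 CPM, log2 fold change 3.45), Ak4, a mitochondrial adenylate kinase (2.68), P4ha2, the sister of P4ha1 (2.63) and Ddit4, an inhibitor of growth signalling (2.20). The stromal markers given above rose in the same libraries, and their part in the values of Lox and P4ha2 was not tested. Those that fell were Tfrc, the transferrin receptor (141 ± 33.4 to 47.5 ± 12.8 CPM, log2 fold change -1.57), Cited2, a HIF competitor (-1.08), and Egln2, the remaining prolyl hydroxylase (-0.69). Vhl, which marks HIF alpha subunits for destruction, rose from 15.9 ± 1.87 to 32.1 ± 8.95 CPM (log2 fold change 1.02, edgeR adjusted p = 0.003904).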

How the data were processed

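The deposited count table held 39488 rows of estimated counts per gene (13.6% of values not whole), made by the authors from reads that the submitters' processing notes tie to FastQC, HISAT2 2.0.5, SAMtools 1.4, StringTie 1.3.3.13 and mm9. The counting program, annotation and use of strand are not given in the sources used here. Each library also had a table of length-normalized values that the authors deposited without naming the unit, treated here as FPKM, since count over value gave 1 length per gene within 10% for 90.71% of values over 14033 genes. The 9788 circular RNA rows (1.44% to 2.24% of counts) were left out and counts were rounded.

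Samples were grouped by the labels. Genes were tested with edgeR 4.0.16 in R 4.3.3 (filterByExpr, TMM scaling, robust quasi-likelihood fit, 5 controls against 5 ox-LDL libraries, no covariate) with Benjamini-Hochberg adjustment over all 12654 genes tested and a threshold of 0.01. The SE is the log2 fold change divided by the square root of F. The common biological coefficient of variation was 37.3%. Values are mean ± SD, n = 5. Ratios within libraries were compared by 2-sided exact permutation of all arrangements, adjusted over 11 ratios. Alternatives were DESeq2 1.42.0, limma 3.58.1 on FPKM, other scalings, filters, thresholds, a replicate block, removal of a gene length trend (lowess span 0.3) and leaving out each library, with limma-voom chosen after seeing the data. The edgeR, DESeq2 and permutation steps were tested on simulated data. Copies were sought with minimap2 2.31.

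The members, ratios and lists were chosen with earlier results of these data known. Named genes were all 35 members by role, and of the further genes that passed, up to the 5 highest and 5 lowest. A gene that this rule names is not reported here. Vhl was added after its value was seen. Further genes Pgk2 and Pklr were not matched to a row.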

Additional observations from a re-analysis of the deposited data

Results flagged for a closer look

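In groups of 5 libraries, the gap from the highest or lowest library to its neighbour was divided by the range of the group, and a share above 0.71 was taken as a library far from the others. This held for 23 of 94 groups of values. For independent normal values the share would be about 1 in 20 (4.7 of 94). Levels in CPM need not be normal and these genes vary together, so that number is no measure of chance here. Ox-LDL replicate 5 was the library concerned in 17 of them.

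It was the highest of the ox-LDL libraries for Egln3 (share 0.946), Pgk1 (0.858), Vegfa (0.857), Hif1a (0.856), Ndrg1 (0.837), Aldoa (0.821), Gapdh (0.821), Pfkfb3 (0.816), Slc16a1 (0.777), Slc16a3 (0.750), Ldha (0.725), Pfkl (0.714) and Bnip3 (0.7105). The same held for the Pfkfb3 over Pfkfb4 ratio (0.776) and for the median deviation of the 35 genes (0.740, a value of 1.82 against 0.58 to 0.90 in the other 4). It was the lowest for the Slc2a6 over Slc2a1 ratio (0.717) and the Eno2 over Eno1 ratio (0.790). Its Hif1a level was 1167 CPM against 164 to 309 CPM in the other ox-LDL libraries, and its Egln3 level 55.7 CPM against 7.38 to 9.97 CPM.

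Control replicate 1 was the highest control for Ldhb (0.805, 45.8 CPM against 16.3 to 22.0 CPM) and Bnip3 (0.716). Control replicate 5 was the highest control for Egln3 (0.843, 8.07 CPM against 3.32 to 4.06 CPM) and the lowest for the Slc2a6 over Slc2a1 ratio (0.730) and the Aldoc over Aldoa ratio (0.761). Ox-LDL replicate 2 was the highest for the Hk3 over Hk1 ratio (0.746).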

How the results depend on the processing

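Of 874 values of single genes over 25 alternatives, 720 kept direction and side of the threshold, 92 no longer passed, 48 newly passed and 14 changed sign, in Gpi1, Egln1 and Ndrg1, none of them called. The alternatives with the threshold at 0.05 and with a log2 fold change above 2 reused the main fit, so no sign could change there. At 0.05 no call could be lost either. The cause was not tested for any change. The 35 genes gave 18 higher by DESeq2, 5 with library size alone, 20 and 5 (lower) with the threshold at 0.05, 6 higher when a log2 fold change above 2 was also asked, and 4, 4 and 1 higher in the limma fits on log2(FPKM + 1), log2(FPKM + 0.1) and without a filter on low values. All genes gave 704 higher with library size alone, 2045 higher and 1320 lower at 0.05, 605 and 244 with the log2 fold change above 2, and 555, 543 and 472 higher in the 3 limma fits. They gave 1765 higher and 1244 lower by DESeq2, and 1229 lower with the gene length trend removed. The further genes gave 5 higher and 1 lower with library size alone, 5 and 0 with the log2 fold change above 2, and 3 and 2, 3 and 1, and 2 and 1 in the 3 limma fits. With the gene length trend removed the Eno2 over Eno1 ratio differed by -0.83 (exact permutation p = 0.0714).

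Same-numbered libraries deviated together with correlations of 0.029, -0.245, 0.424, -0.263 and 0.403, and 1 of 5 controls correlated best with its own number. These deviations also followed gene length, with a Spearman correlation of 0.45 in control 2 and -0.65 in ox-LDL 2, for example. They therefore cannot show whether replicate numbers pair the samples, which were treated as unpaired. With a replicate block, 8 of the 35 genes rose and 3 fell, and 5 further genes rose and 1 fell, against 885 and 549 of all genes. With the block and the length trend removed 1233 genes of all fell. Paired, no ratio could go below an exact permutation p of 0.0625, so the block says nothing of the ratios, whose differences were 1.49 for Hk2 over Hk1, 2.60 for Pfkfb3 over Pfkfb4, -3.39 for Aldoc over Aldoa, -0.78 for Eno2 over Eno1, -3.18 for Ldhb over Ldha, -4.92 for Epas1 over Hif1a and 1.67 for Egln3 over Egln1. Ndrg1 was at -0.022 with the block, -0.017 with the length trend removed as well and -0.022 by limma-voom, and at -0.169, -0.222 and -0.169 in the 3 limma fits, where Gpi1 was at -0.020, -0.021 and -0.020.

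Leaving out 1 library gave 826 to 1755 genes higher and 436 to 1502 lower, 3 to 17 of the 35 higher and 2 to 4 lower, 4 to 13 further genes higher and 2 to 6 lower, and medians of the 35 from 0.78 to 1.21. Differences ranged from -0.013 to 0.606 for Slc2a6 over Slc2a1 (negative without control 5), -0.035 to 0.243 for Hk3 over Hk1 (negative without ox-LDL 2), 0.298 to 0.823 for Slc16a3 over Slc16a1, -0.93 to -0.48 for Eno2 over Eno1, -5.46 to -4.03 for Epas1 over Hif1a, -0.375 to 0.081 for Egln1 and -0.472 to 0.45 for Ndrg1.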
